A study of Mus musculus with 6 samples.

Results

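The cells described here were wild-type mouse bone marrow-derived macrophages that had been exposed to lipopolysaccharide (LPS) for 2 h, and they were divided by whether or not a transcript of Ifnb1 was captured. The members were defined by 2 values of each well, the sum of its unique molecular identifiers (UMIs, tags that count captured mRNA molecules once each) and its number of Ifnb1 UMIs. Of 186 wild-type wells at 2 h, 181 held at most 25000 UMIs and were kept. A kept cell with at least 1 Ifnb1 UMI was called Ifnb1-positive, which gave 34 cells, and one with 0 was called negative, which gave 147 cells. The whole series held 1362 wells in 6 samples, namely wild-type (WT) and Rad21-/- macrophages, each untreated, at 2 h and at 8 h of 10 ng/ml LPS.

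Bone marrow cells were grown to macrophages in medium conditioned by L929 cells, single cells were sorted into plates, and libraries were made by MARS-seq, in which transcripts are tagged at their 3' ends well by well. All samples, the wild-type ones included, carried creERT2 on both Rosa26 alleles and received 200 nM 4-hydroxytamoxifen 96 h after plating, with experiments at day 7. The Rad21-/- cells carried Rad21 alleles that the induced Cre deletes, and Rad21 encodes a subunit of cohesin. The animals were of mixed C57BL/6 129 background, and their number and age were not given in the labels used here. Each condition was 1 sample, and cells of 1 sample share a culture. Differences between positive and negative cells therefore had no replicate check, no test was run, and every interval below is an exact 95% interval that covers counting error only.

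Ifnb1 encodes interferon-beta, the type I interferon that macrophages make first when TLR4, the receptor for LPS, signals from endosomes through the adaptor TRIF (encoded by Ticam1) to the transcription factor IRF3. Its promoter is a compact element on which IRF, NF-kappaB and AP-1 family proteins assemble. The secreted protein acts on the producing cell and on its neighbours through the receptor encoded by Ifnar1 and Ifnar2, which switches on interferon-stimulated genes, so the genes induced by the interferon are not restricted to the cells that make it. Only some cells of a stimulated culture transcribe Ifnb1 at a given time.

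Ifnb1 lies on chromosome 4 of the mouse genome (GRCm38, 88522025 to 88522794, minus strand). The promoter of the gene that divided the cells is shown first, as 300 bases from 250 before to 50 after the RefSeq start site (GRCm38.p6, chr4:88522745-88523044, minus strand). Capitals mark every match to an IRF-like motif, AANNGAAA, or an NF-kappaB-like motif, GGGANNTTCC, searched on both strands. The promoters of Peli1 (chr11:21091074-21091373, plus strand) and Nfkbib (chr7:28766595-28766894, minus strand), 2 genes with higher counts in the Ifnb1-positive cells, are shown with it because a reader may wish to see whether they hold the same letters.

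Ifnb1: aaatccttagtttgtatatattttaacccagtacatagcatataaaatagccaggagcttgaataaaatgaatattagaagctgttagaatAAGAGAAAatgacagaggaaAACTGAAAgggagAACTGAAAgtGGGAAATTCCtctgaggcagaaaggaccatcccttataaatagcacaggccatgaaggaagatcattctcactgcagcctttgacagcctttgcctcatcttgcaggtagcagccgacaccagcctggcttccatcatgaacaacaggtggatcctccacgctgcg

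Peli1: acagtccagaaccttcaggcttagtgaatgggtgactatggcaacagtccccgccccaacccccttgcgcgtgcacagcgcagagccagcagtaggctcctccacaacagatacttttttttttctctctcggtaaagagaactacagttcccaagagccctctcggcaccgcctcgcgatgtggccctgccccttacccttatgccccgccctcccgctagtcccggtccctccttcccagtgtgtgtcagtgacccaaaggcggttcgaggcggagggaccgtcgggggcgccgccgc

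Nfkbib: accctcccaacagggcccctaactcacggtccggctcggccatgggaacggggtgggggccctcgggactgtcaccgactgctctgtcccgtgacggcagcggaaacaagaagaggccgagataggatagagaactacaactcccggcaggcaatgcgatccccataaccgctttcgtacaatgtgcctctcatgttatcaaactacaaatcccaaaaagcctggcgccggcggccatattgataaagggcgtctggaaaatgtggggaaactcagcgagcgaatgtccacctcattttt

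The Ifnb1 window held 3 matches to the IRF-like motif, which began 159, 139 and 126 bases before the start site, and 1 match to the NF-kappaB-like motif, which began 116 bases before it. The windows of Peli1 and Nfkbib held no match to either. Among 32851 promoters of the same length, 23.9% held the IRF-like letters and 1.47% held the NF-kappaB-like letters, so the first motif is common and the second is not. A match is a run of letters and not a measured binding site.

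Ifnb1 transcripts were found at 2 h of LPS and at no other time. At 2 h, 34 of 181 wild-type cells (18.8%, interval 13.4 to 25.2%) held at least 1 Ifnb1 UMI. No Ifnb1 UMI was counted in 238 untreated or 253 wild-type cells at 8 h, which allows shares of up to 1.26% and 1.19%. In Rad21-/- macrophages at 2 h the share was 2 of 184 cells (1.09%, 0.132 to 3.87%), whose interval did not overlap that of the wild-type cells, and 0 of 267 untreated and 0 of 180 cells at 8 h were positive (44 Rad21-/- wells at 8 h from small pools were not used here). The same division at 8 h could not be made because no cell was positive, and 2 Rad21-/- cells were too few to describe as a group.

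**Figure D1:**
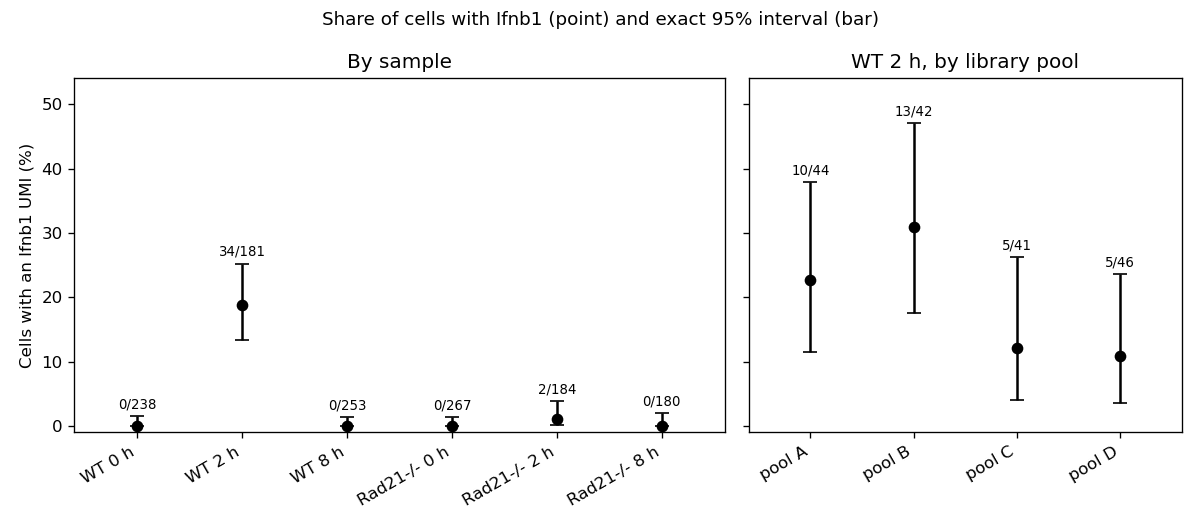
Left, the share of cells (in %) that held an Ifnb1 UMI in each of the 6 samples, and right, the same for the 4 largest library pools of the wild-type 2 h sample. Points are shares, bars are exact 95% intervals, and the numbers above are positive cells of all cells. The wild-type 2 h sample stands at 18.8% against 0 to 1.09% in the other samples, and its pools range from 10.9% to 31.0% with overlapping intervals.

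Most positive cells held a single molecule. Of the 34 positive cells, 22 held 1 Ifnb1 UMI, 5 held 2, 6 held 3 and 1 held 5, for 55 UMIs in all. A division at 1 UMI therefore places the 22 cells just inside the limit beside 147 cells with 0 UMIs just outside it, and a negative cell may hold Ifnb1 mRNA that was not captured. The positive share was 19.7% (10.6 to 31.8%) in the 61 cells with the fewest UMIs, 15% (7.10 to 26.6%) in the 60 cells in the middle and 21.7% (12.1 to 34.2%) in the 60 with the most, with overlapping intervals. After each cell was thinned to 3800 UMIs, drawn at random without replacement, 22 of 160 cells (13.8%, 8.82 to 20.1%) still held an Ifnb1 UMI. Across those 160 thinned cells the variance of Ifnb1 UMIs was 1.28 times their mean, compared with 1.60 for Il12b, 1.07 for Egr2 and 1.00 for Prdm1, genes of similar or somewhat higher mean.

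The 4 library pools that held nearly all the cells (named A to D here) differed in their positive share without separating beyond counting error. Pool A had 10 of 44 positive cells (22.7%), pool B 13 of 42 (31.0%), pool C 5 of 41 (12.2%) and pool D 5 of 46 (10.9%). The intervals of pool B (17.6 to 47.1%) and pool D (3.62 to 23.6%) overlapped. The remaining 8 kept cells came from smaller pools, and 1 of them was positive.

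Median depth was similar in both groups as a whole but not in every pool. Positive cells held a median of 5996 UMIs (3230 to 21368) and 2793 genes, and negative cells a median of 5892 UMIs (2414 to 15986) and 2739 genes. By the mean, positive cells were deeper, with 7662 UMIs against 6373 in negative cells. In pool D the 5 positive cells had a median of 12237 UMIs against 7069 in the 41 negative cells, whereas in pool A the 10 positive cells had 4672 against 5423 in 34 negative cells. The values below are therefore those of cells thinned to 3800 UMIs, which left 32 positive and 128 negative cells, with the values of all UMIs beside them. The label of the cells was borne out by their genes, since all 19 macrophage markers listed were in the matrix and their summed thinned UMIs per cell had a median of 95.5 (31 to 167) in positive and 80 (39 to 139) in negative cells.

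Few genes differed by a large factor between the groups. Of 1937 genes with at least 50 thinned UMIs, Ifnb1 left out, 9 (0.465%) were at least 2-fold higher in positive cells and 28 (1.45%) at least 2-fold lower. The balance of these counts depended on depth and on the pools, since with all UMIs 5 were higher and 2 lower, with UMI-matched negative cells of the same pool 9 and 4, without pool A 14 and 47, and without pool D 8 and 9. By the share of cells with a UMI, 276 genes (14.2%) were at least 10 points higher and 265 (13.7%) at least 10 points lower, and with all UMIs 454 and 98. Among genes with at least 200 thinned UMIs none was past 2-fold in either direction. The log2 ratio had a median of 0.04 over all tested genes, of which 1038 (53.6%) had ratios above 0. By plain means, without the 0.5 UMI added to each group in the ratios, 974 (50.3%) were above 0.

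Genes on 1 side of 0 in all 4 pools were also few. How many genes would agree without any difference between the groups was not computed. With 0.5 UMI added to each group, 172 genes (8.88%) were higher in positive cells in all 4 pools and 73 (3.77%) were lower in all 4. The added 0.5 UMI lifts the group with fewer cells more, and with plain means the counts were 104 and 137 genes (5.37% and 7.07%). The genes named next were the 15 highest and 10 lowest ratios among those on 1 side of 0 in all 4 pools, which makes their direction in the pools a condition of the choice and not a result.

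**Figure D2:**
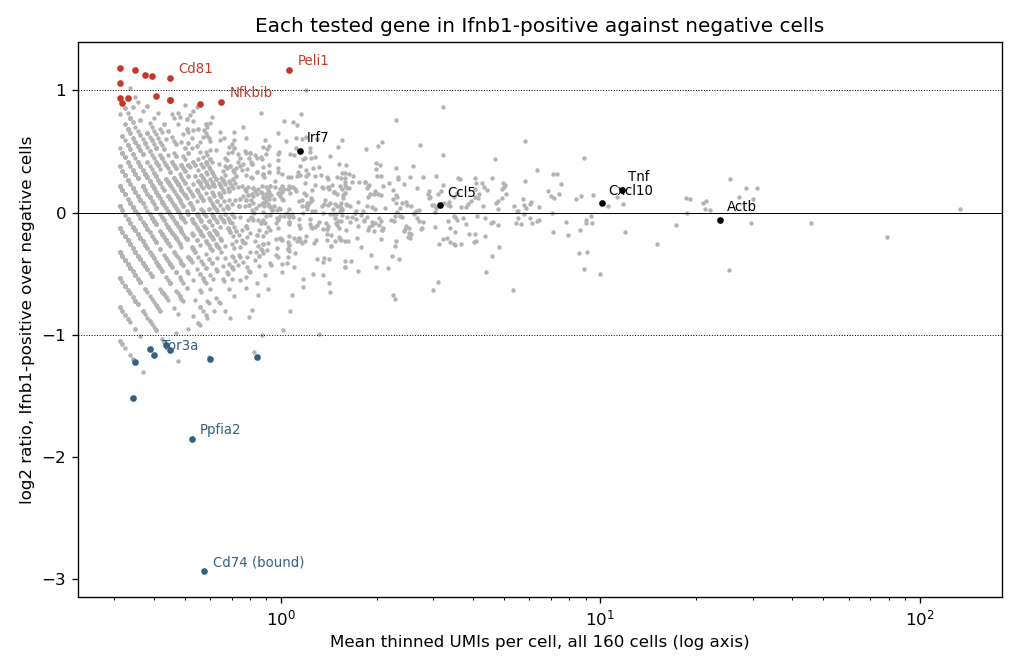
The log2 ratio of thinned UMIs per cell, Ifnb1-positive (32 cells) over negative (128 cells), against the mean thinned UMIs per cell on a log axis, with 1 point for each of 1937 genes. Red and blue points are the 15 highest and 10 lowest genes on the same side of 0 in all 4 pools, dotted lines mark 2-fold, and Cd74 is drawn at the bound that 0 UMIs in the positive cells allow. Abundant genes such as Tnf, Cxcl10 and Actb lie near 0, and the ratios past 2-fold are those of genes with about 1 thinned UMI per cell or fewer.

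The 15 genes with the highest ratios belonged to no single process. They included Pde1c (a cyclic nucleotide phosphodiesterase), Itm2c, Peli1 (an E3 ubiquitin ligase that acts downstream of Toll-like receptors), Gpc6 (a glypican), Cd81 (a tetraspanin), Higd2a, Serinc1, Bcl10 (an adaptor that links receptors to NF-kappaB), Aff4 (a scaffold of the super elongation complex), Gm14044, Lcp2 (the adaptor SLP-76), Nfkbib (the NF-kappaB inhibitor IkappaB-beta), Zfand6 and Hnrnpf (an RNA-binding splicing factor). Their log2 ratios ran from 0.89 for Hnrnpf to 1.19 for Pde1c, and 7 of the 15 were past 2-fold. By plain means, 12 of the 15 were higher in all 4 pools and Higd2a and Gm14044 in 3. Pde1c had 18 thinned UMIs in 32 positive cells and 32 in 128 negative cells, with a counting interval of the log2 ratio of 0.25 to 2.05, which shows how few molecules stand behind most of these ratios.

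Peli1 had the largest number of molecules among these genes, but 1 cell held many of them. Peli1 lies on chromosome 11 (GRCm38, 21091283 to 21150327). The 34 positive cells held 0 to 55 Peli1 UMIs with a median of 2, and the 147 negative cells 0 to 9 with a median of 1, so the ranges overlapped from end to end of the negative group. The 55 UMIs were those of a single positive cell with 10668 UMIs and 2 Ifnb1 UMIs, and the next positive cell held 10. Thinned, the mean was 1.91 UMIs per positive cell and 0.85 per negative cell, a log2 ratio of 1.17 (0.69 to 1.63). Without the richest cell of each group it was 0.64, from means of 1.26 and 0.81.

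The share of cells with Peli1 differed less than its mean. A Peli1 UMI was found in 68.8% of thinned positive cells (22 of 32) and 52.3% of thinned negative cells (67 of 128), and with all UMIs in 28 of 34 (82.4%, 65.5 to 93.2%) and 73.5% of the 147 negative cells (65.6 to 80.4%). The thinned share was not stable to the draw, since a second random draw gave a difference of -10.2 points in place of 16.4. Peli1 stood at 252 CPM (UMIs scaled to the summed UMIs of the group, in parts of 1000000) in cells with 0 Ifnb1 UMIs, 322 in those with 1 and 889 in those with 2 or more, and the last value includes the cell with 55 UMIs. Without the richest cell of each group, positive and negative cells had 312 and 245 CPM.

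The difference in Nfkbib did not rest on 1 cell. It lies on chromosome 7 (GRCm38, 28758251 to 28766644), and its product retains NF-kappaB in the cytoplasm. Positive cells held 0 to 5 Nfkbib UMIs and negative cells 0 to 3, with a median of 1 in both, and the ranges overlapped. A UMI was found in 28 of 34 positive cells (82.4%, 65.5 to 93.2%) and 79 of 147 negative cells (53.7%, 45.3 to 62.0%). These intervals did not overlap, but Nfkbib was picked for its high ratio in this same comparison. With all UMIs, 454 tested genes were at least 10 points higher in share and 98 lower. After thinning the shares of Nfkbib were 65.6% (46.8 to 81.4%) and 40.6% (32 to 49.7%), whose intervals overlapped. The thinned mean was 1.03 UMIs per positive cell and 0.55 per negative cell, a log2 ratio of 0.91 (0.25 to 1.51), and 0.87 without the richest cell of each group. Pool by pool, the thinned means of positive and negative cells were 1.44 and 0.71 in pool A, 0.83 and 0.50 in pool B, 0.60 and 0.56 in pool C and 1.40 and 0.49 in pool D. Cells with 2 or more Ifnb1 UMIs (196 CPM) did not exceed those with 1 (241 CPM), and both were above cells with 0 (129 CPM).

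Bcl10, Lcp2 and Cd81 showed the same kind of shift in the share of cells. Bcl10 was found in 22 of 34 positive cells (64.7%, 46.5 to 80.3%) and 53 of 147 negative cells (36.1%, 28.3 to 44.4%). Lcp2 was found in 67.6% (49.5 to 82.6%) and 38.1% (30.2 to 46.5%), and Cd81 in 64.7% (46.5 to 80.3%) and 41.5% (33.4 to 49.9%), with all UMIs. For Bcl10 and Lcp2 the intervals of the groups did not overlap, and for Cd81 they overlapped. These genes were taken from the highest ratios of the same comparison. With all UMIs, 454 of the tested genes were at least 10 points higher in share and 98 lower. How many of all tested genes had intervals that did not overlap was not counted, here or for the other genes described. Thinned, the shares were 43.8% and 21.9% for Bcl10, 56.3% and 30.5% for Lcp2 and 56.3% and 30.5% for Cd81. With negative cells matched on UMIs within pools, the difference for Cd81 was 4.71 points, against 28.7 for Bcl10 and 24.7 for Lcp2.

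**Figure D3:**
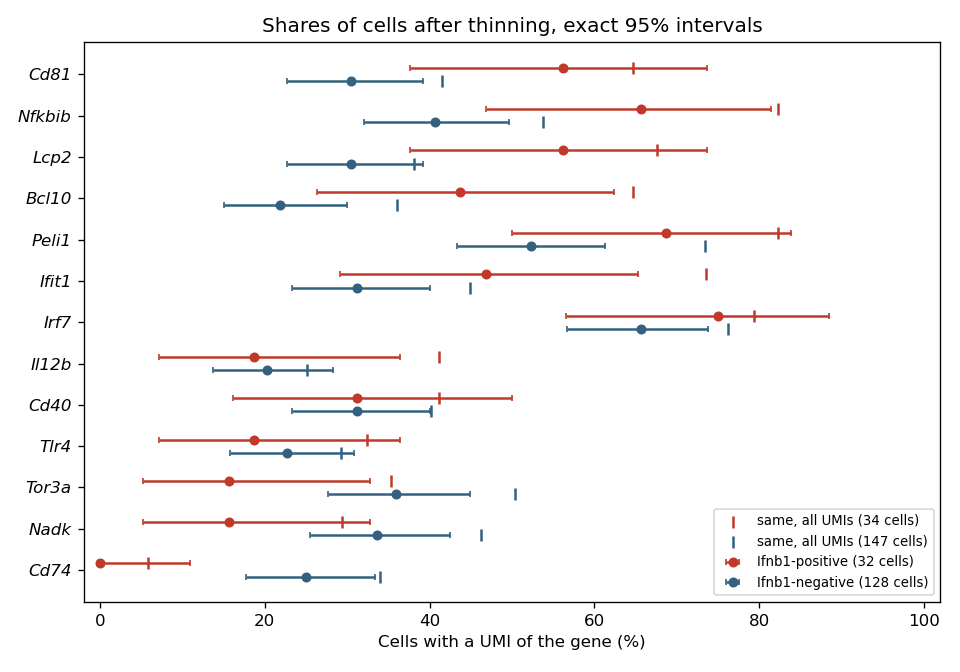
The share of cells (in %) that held a UMI of each of 13 genes, thinned to 3800 UMIs, in 32 Ifnb1-positive (red) and 128 negative (blue) cells. Points are shares, bars are exact 95% intervals, and upright ticks are the shares with all UMIs in 34 and 147 cells. Nfkbib, Bcl10, Lcp2 and Cd81 stand higher in positive cells on both scales, Cd74 stands lower on both, and Cd40 and Tlr4 lie close together.

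Gpc6, Pde1c and 5 genes chosen by share alone were also among the higher shares. The thinned share was 50% and 25.8% for Gpc6 and 46.9% and 21.9% for Pde1c in positive and negative cells. The genes with the next largest rise in share were Rn7s2 (a copy of the 7SL RNA), Ndufa13 and Cox5a (subunits of respiratory complexes I and IV), Aplp2 (an amyloid precursor-like protein) and Rdh5 (a retinol dehydrogenase), with differences of 24.2 to 25.8 points. With all UMIs the shares of Ndufa13 were 79.4% and 72.1% and those of Cox5a 88.2% and 81%, so their differences were smaller when no UMI was discarded.

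In the other direction, Cd74 had the lowest thinned log2 ratio of the tested genes on 1 side of 0 in all 4 pools. Cd74 encodes the invariant chain, which escorts MHC class II molecules to the compartment where they load peptides. After thinning, 0 of 32 positive cells held a Cd74 UMI (interval 0 to 10.9%) compared with 32 of 128 negative cells (25%, 17.8 to 33.4%). The negative cells held 92 thinned UMIs, and set against 3 UMIs, the number that a count of 0 allows over the positive group, the positive cells were at least 7.67-fold lower, while the exact interval of the log2 ratio reached up to -2.61. Both hold for the thinned set alone, which had lost a positive cell with 19 Cd74 UMIs. With all UMIs, 2 of 34 positive cells (5.88%, 0.720 to 19.7%) and 50 of 147 negative cells (34%, 26.4 to 42.3%) held Cd74, and the intervals did not overlap.

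The share of Cd74 was lower in the positive cells of each pool. With all UMIs, the positive and negative cells with Cd74 were 1 of 10 and 13 of 34 in pool A, 1 of 13 and 8 of 29 in pool B, 0 of 5 and 9 of 36 in pool C, and 0 of 5 and 19 of 41 in pool D. Read the other way, 2 of 52 cells with Cd74 (3.85%, 0.469 to 13.2%) and 32 of 129 cells without it (24.8%, 17.6 to 33.2%) were Ifnb1-positive, although the cells with Cd74 had more UMIs (a median of 6650 against 5646). Cd74 was found in 28.7% of all wild-type cells at 2 h, and in 19.3% to 27.8% of the cells of the other 5 samples.

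The mean level of Cd74 could not be settled from these cells, because a few of them held most of its UMIs. The 147 negative cells held 0 to 53 Cd74 UMIs and 5 of them held 10 or more, while the 34 positive cells held 0, 1 or 19. The cell with 19 UMIs held 3 Ifnb1 UMIs and 17 H2-Aa, 5 H2-Ab1 and 4 H2-Eb1 UMIs, the genes of the class II chains, and it left the thinned set because it had only 3230 UMIs. At a thinning depth of 2400 UMIs, which keeps every cell, the log2 ratio of Cd74 was -0.02 in place of a bound of -2.94, and with all UMIs it was -1.28. At that depth the share was still 13.2 points lower in positive cells. Without the richest cell of each group, 33 positive cells held 1 Cd74 UMI in all (3.89 CPM) and 146 negative cells held 125 (135 CPM). A UMI of any of Cd74, H2-Aa, H2-Ab1 or H2-Eb1 was found in 7 of 34 positive cells (20.6%, 8.70 to 37.9%) and 63 of 147 negative cells (42.9%, 34.7 to 51.3%). The 3 chain genes without Cd74 did not show this, each being found in 3 of 34 positive cells (8.82%) and in 6.80% to 8.16% of negative cells.

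**Figure D4:**
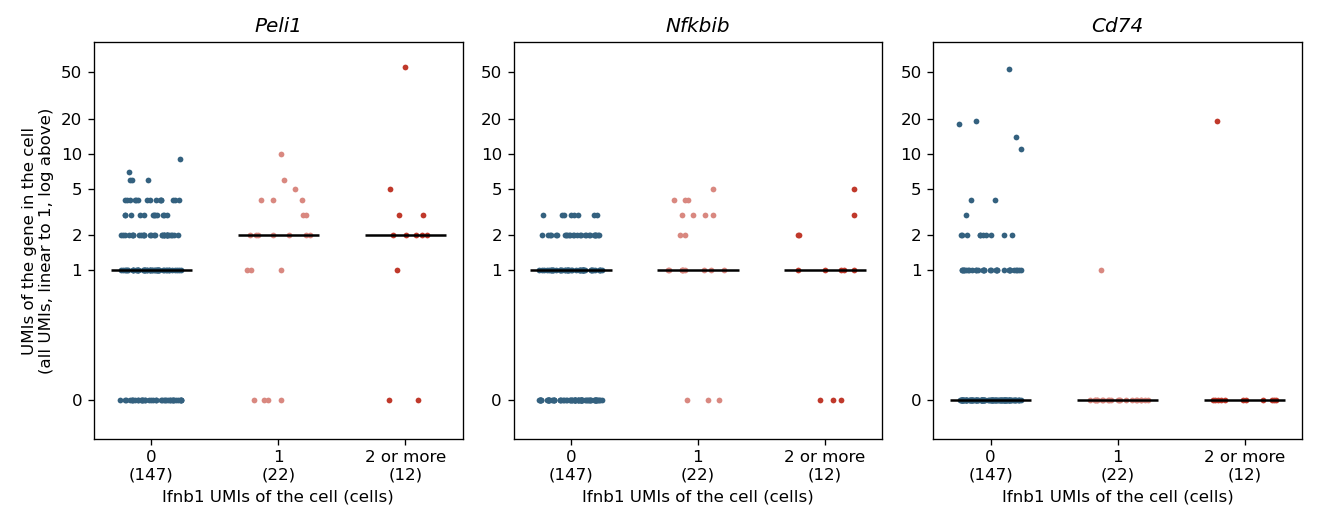
The number of UMIs of Peli1, Nfkbib and Cd74 in each of the 181 cells, without thinning, by the number of Ifnb1 UMIs of the cell (147 cells with 0, 22 with 1 and 12 with 2 or more). Each point is a cell, bars are medians, and the vertical axis is linear up to 1 and logarithmic above. The single cell with 55 Peli1 UMIs and the single positive cell with 19 Cd74 UMIs stand apart, and 32 of the 34 positive cells held no Cd74.

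The other 9 genes among the lowest ratios differed in how well they held under other settings. They were Ppfia2 (a liprin scaffold), Nadk (the NAD kinase), Tor3a (a torsin family ATPase that interferon induces), Syt1 (a synaptotagmin), Hist3h2a (a histone H2A gene), Snx27 (a sorting nexin) and the predicted genes Gm11867, Gm20498 and Gm43655, with log2 ratios from -1.85 for Ppfia2 to -1.08 for Snx27. A Ppfia2 UMI was found in 15.6% of thinned positive and 45.3% of thinned negative cells, but in 47.1% and 60.5% with all UMIs. Snx27 was found in 21.9% and 34.4% after thinning and in 50% and 49% with all UMIs, so its difference in share was not seen without thinning. Nadk kept most of its difference, with 15.6% and 33.6% after thinning and 29.4% and 46.3% with all UMIs. The share of Nadk was lower in positive cells in 20 of 20 other settings, and that of Snx27 in 17. These counts include the settings of the gene minimum and the added constant, which cannot change a share. Among the largest falls in thinned share, Gm14303 (28.1% and 59.4%) and Manf (an endoplasmic reticulum stress protein, 31.3% and 57%) were lower in share in all 4 pools, as the choice required, and by ratio in 3.

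The genes of the pathway that leads to Ifnb1 were mostly too scarce to compare. Of 21 genes for TLR4 and TRIF signalling, all in the matrix, 4 reached 50 thinned UMIs, 2 with ratios above 0 and 2 below, and the median of 0.04 equalled that of all tested genes. Tlr4 itself was found in 18.8% of thinned positive and 22.7% of thinned negative cells, and in 32.4% and 29.3% with all UMIs. Ticam1, the TRIF adaptor, had 5 thinned UMIs in the 32 positive cells and 4 in the 128 negative cells, and was found in 8 of 34 (23.5%, 10.7 to 41.2%) and 15 of 147 (10.2%, 5.82 to 16.3%) with all UMIs, intervals that overlapped. Irf3 had 0 and 5 thinned UMIs, and was found in 14.7% and 6.12% of cells with all UMIs. Cd14, the co-receptor that hands LPS to TLR4, had means of 8.41 and 6.76 thinned UMIs, a log2 ratio of 0.32 (0.11 to 0.51).

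Irf7, which encodes the factor that amplifies interferon production, stood at 1.5 and 1.06 thinned UMIs per positive and negative cell. Its log2 ratio of 0.51 had an interval of -0.01 to 0.98, and its thinned share was 75% and 65.6%. With all UMIs the shares were 79.4% and 76.2% and the log2 ratio 0.18, so the difference was within counting error. Its direction also turned with the draw, since a second random draw gave a difference in share of -14.1 points in place of 9.38 (log2 ratio 0.07), and thinning by a rule that keeps 50% of cells gave -12.4 points and a log2 ratio of -0.20. Ifnar1 (0.09 thinned UMIs per cell in both groups) and Ifnar2 (0.34 and 0.39) were alike within their counts. Of 18 type I interferon genes, Ifnb1 was the 1 found in the matrix.

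Interferon-stimulated genes did not separate the groups. Of 65 listed, all were in the matrix and 22 were tested, with 13 ratios above 0, 9 below, none at least 2-fold higher and 1, Tor3a, at least 2-fold lower. Of all tested genes, 53.6% had ratios above 0. The median log2 ratio of the list was 0.16, against 0.04 for all tested genes. Its sum was 39.6 and 37.4 thinned UMIs per positive and negative cell. The highest were Sp100 (a nuclear body protein, 0.73) and Irf7, and the lowest Tor3a (-1.17) and Oasl2 (-0.38). With all UMIs, Ifit1, which binds viral RNA ends, was found in 25 of 34 positive cells (73.5%, 55.6 to 87.1%) and 66 of 147 negative cells (44.9%, 36.7 to 53.3%). The intervals did not overlap, and how many of all tested genes did the same was not counted. On that scale 454 tested genes were at least 10 points higher in share and 98 lower. The thinned means of Ifit1 were 0.59 and 0.46, a log2 ratio of 0.39 (-0.46 to 1.13), higher in 2 of 4 pools. Its thinned shares were 46.9% (29.1 to 65.3%) and 31.3% (23.4 to 40.0%), whose intervals overlapped. With negative cells matched on UMIs within pools, its difference in share was 38.5 points and its log2 ratio 0.83.

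The abundant cytokine and chemokine genes were close to equal. Tnf was found in every cell of both groups, with 3 to 23 thinned UMIs (median 13) in positive and 1 to 32 (median 10.5) in negative cells. Its log2 ratio was 0.19 (0.03 to 0.35), but the pools went both ways, from -0.38 in pool B to 0.66 in pool A. Of 5 tested inflammatory cytokine and interleukin genes, 4 had ratios above 0 and 1, Ebi3 (a subunit of interleukins 27 and 35, -0.86), below, and the median was 0.18. Il1rn, the interleukin 1 receptor antagonist, stood at 0.30 and Il1b at 0.02.

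Of 12 tested chemokine genes, 11 had ratios above 0, with a median of 0.12 and none past 2-fold. Of all tested genes, 53.6% had ratios above 0. Cxcl3 (0.60) and Cxcl16 (0.49) were highest and Ccl9 (-0.06) and Ccl5 (0.06) lowest. Cxcl10, a chemokine that interferon and NF-kappaB both induce, had 1 to 30 thinned UMIs (median 8) in positive and 0 to 36 (median 8.5) in negative cells, with a log2 ratio of 0.08 (-0.10 to 0.25). All 32 positive cells and 94.5% of negative cells held it, and the pools ranged from -0.14 in pool B to 0.65 in pool D. The summed chemokine level was 151 and 137 thinned UMIs per cell.

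Il12b, which encodes the p40 subunit of interleukins 12 and 23 and which like Ifnb1 is expressed in a fraction of cells, gave different answers with and without thinning. With all UMIs it was found in 14 of 34 positive cells (41.2%, 24.6 to 59.3%) and 37 of 147 negative cells (25.2%, 18.4 to 33%), and after thinning in 18.8% (6 of 32) and 20.3% (26 of 128). Both pairs of intervals overlapped. The other genes of the set that was also studied by RNA-FISH stood as follows. Atf3 (a stress-responsive transcription factor) was found in 75% and 64.1% of thinned cells, with a log2 ratio of 0.47 (0.00 to 0.90). Cd40 (a co-stimulatory receptor) was at 31.3% in both groups, Prdm1 (a transcriptional repressor) at 31.3% and 32.8%, Egr2 (an early growth response factor) at 18.8% and 17.2% and Sertad2 at 21.9% and 25%. Actb had a log2 ratio of -0.06 (-0.18 to 0.06).

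Among signalling and transcription factor genes, most ratios were small and on the positive side. Of 13 tested NF-kappaB subunit and feedback genes, 10 were above 0 and 3 below, with a median of 0.13, and Peli1 and Nfkbib, described above, were the highest and Nfkb1 (-0.39) and Rel (-0.07), which encode subunits, the lowest. Of 9 tested immediate-early transcription factor genes, 7 were above 0 and 2 below (median 0.14), from Atf3 (0.47) and Klf7 (0.42) to Jund (-0.41) and Btg2 (-0.57). Of 3 tested MAP kinase phosphatase and ERK feedback genes, Dusp1 had 0.49 (-0.01 to 0.95), Spred1 0.41 and Dusp2 -0.08. Of 4 tested genes that destroy inflammatory mRNAs, Zc3h12a (Regnase-1) stood at 0.53 and Zfp36 (tristetraprolin) at 0.06, and N4bp1 (-0.54) and Zc3h12c (-0.56) below 0. The median over all tested genes was 0.04, and 53.6% of them had ratios above 0. The counting interval of each gene named in this paragraph other than Peli1, Nfkbib and Atf3 included 0.

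The classes of LPS-induced genes, which the study took from earlier work on the timing and protein synthesis needs of the response, had medians near 0. The median log2 ratio was 0.14 for the early primary class A1+2 (17 above 0 and 8 below of 25), 0.31 for B (6 and 3 of 9), 0.13 for C (44 and 18 of 62), -0.04 for D (15 and 17 of 32), 0.19 for E (12 and 3 of 15) and -0.07 for F (5 and 8 of 13). Class D, which holds Peli1, thus had fewer members above 0 than below, whereas 53.6% of all tested genes were above 0. Past 2-fold were only Peli1 in class D and Tor3a in class F. Samsn1 (0.78) and Ppp1r15a (0.80) were the highest of class A1+2, and Pde4b (-0.75) and Rnf19b (-0.71) the lowest of class C.

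**Figure D5:**
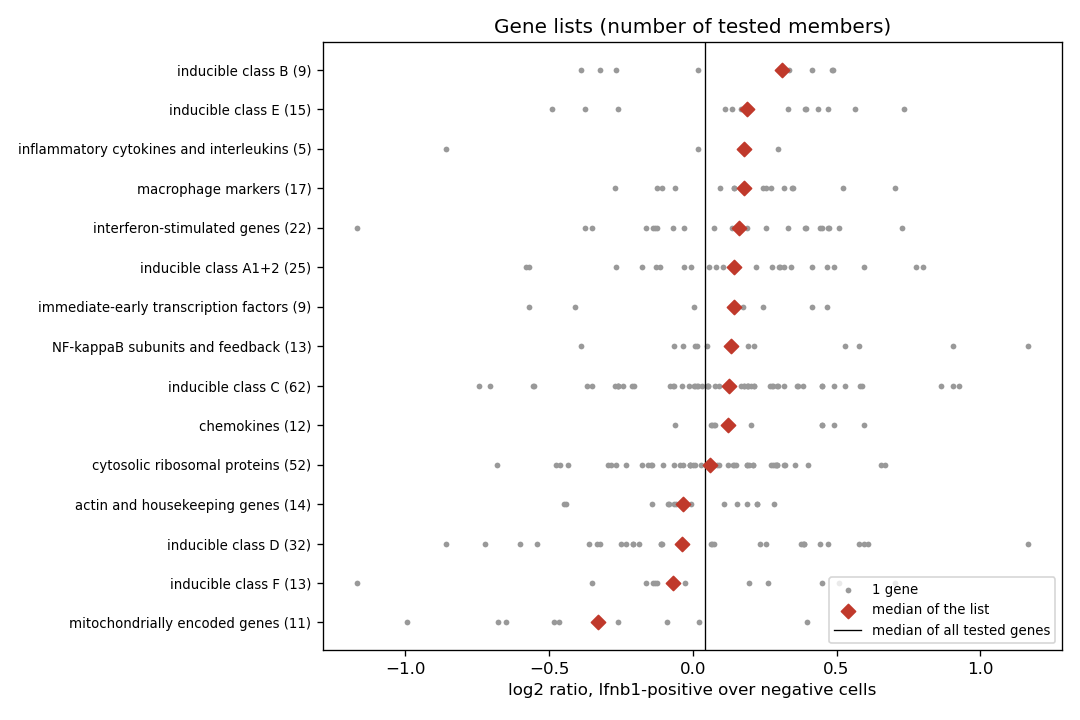
The log2 ratio of thinned UMIs, Ifnb1-positive over negative cells, of each tested member (grey) and the median (red diamond) of 15 gene lists, with the number of tested members in brackets. The vertical line is the median of all tested genes, 0.04. The medians run from -0.33 for mitochondrially encoded genes to 0.31 for class B, and the members of each list spread to both sides of 0.

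Other gene groups that move with cell state or RNA quality were also read, beside the 53.6% of all tested genes with ratios above 0. Of 52 tested cytosolic ribosomal protein genes, 32 were above 0 and 20 below (median 0.06), and of 14 actin and housekeeping genes 6 and 8 (median -0.03). Of 11 tested mitochondrially encoded genes, 2 were above 0 and 9 below (median -0.33), led by mt-Co3 (-0.996) and mt-Nd2 (-0.68). Their summed log2 ratio was -1.15 in pool D and -0.02, -0.02 and -0.18 in pools A, B and C, so most of that difference lay in the pool where positive cells were deepest, and its part in the other results was not tested. Irg1, which encodes the enzyme that makes itaconate, stood at 3.72 and 4.79 thinned UMIs, a log2 ratio of -0.36 (-0.66 to -0.08), lower in 4 of 4 pools. Of 12 genes for cohesin and CTCF, 1 was tested, Ctcf, which stood at -0.44 (-1.57 to 0.44).

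Markers of other cells ranged from 0 to a median of 1 UMI per cell, and their part in the results was not tested. Of 11 dendritic cell markers 3 were in the matrix, Flt3, Itgax and Zbtb46. Among thinned cells, Itgax was found only in positive cells, in 1 of 32, and Zbtb46 only in negative cells, in 16 of 128. Flt3 was at 0 in both groups. Of 12 neutrophil and granulocyte precursor markers 2 were in the matrix, S100a8 and Camp, and both were at 0 in both groups. Of 12 lymphocyte markers 4 were in the matrix, with UMIs in 3 and 27 cells. Of 10 plasmacytoid dendritic cell markers 6 were in the matrix, with a median of 1 UMI per cell in both groups (0 to 3 and 0 to 8) and UMIs in 21 of 32 positive and 93 of 128 negative cells, the most common being Tcf4 (a transcription factor, with thinned shares of 34.4% and 52.3%) and Ccr9 (a chemokine receptor, 40.6% and 31.3%). Of 10 monocyte markers 8 were in the matrix, also with a median of 1 UMI per cell (0 to 2 and 0 to 4) and with UMIs in 19 and 70 cells. Cx3cr1, a chemokine receptor, accounted for most of these cells, with shares of 59.4% and 44.5%, and Plac8, Hp and Fn1 were at 0 in both groups. Among 19 macrophage markers, 17 were tested, 13 with ratios above 0 and 4 below (median 0.18), from Fcgr1 (0.70) and C1qa (0.52) to Cebpb (-0.27). Ratios above 0 were found for 53.6% of all tested genes. Of 23 genes of mitosis and G2/M, 4 were tested, Mki67 (0.27), Top2a (-0.04), Hmgb2 (-0.05) and Tubb4b (-0.42), each with an interval that included 0. The sum of that list was 3.31 and 4.32 thinned UMIs per positive and negative cell, a log2 ratio of -0.38 (-0.70 to -0.08). Its log2 ratio was below 0 in pools A, B and C (-0.64, -0.56 and -1.81) and 0.43 in pool D. For 21 genes of DNA replication and S phase the sum stood at 0.08 (-0.20 to 0.36).

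The same cells were also divided by 2 other genes expressed in a fraction of them. When divided by Il12b (48 and 112 thinned cells), 6 of 1937 genes were at least 2-fold higher and 14 lower, and when divided by Egr2 (44 and 116) 10 were higher and 15 lower, compared with 9 and 28 for Ifnb1. For Nfkbib the log2 ratio was -0.07 (-0.74 to 0.55) in the division by Il12b and 0.18 (-0.49 to 0.79) by Egr2, against 0.91 by Ifnb1. For Peli1 it was -0.24 (-0.78 to 0.25) by Il12b and 0.71 (0.24 to 1.17) by Egr2, against 1.17. For Cd81 it was 1.14 (0.43 to 1.85) by Il12b and 0.04 by Egr2. With all UMIs, Cd74 was found in 12 of 51 Il12b-positive (23.5%) and 40 of 130 negative cells (30.8%), and in 8 of 48 Egr2-positive (16.7%) and 44 of 133 negative cells (33.1%), so its share was lower in the positive cells of each division. Its thinned log2 ratio went both ways, with -1.21 (-2.19 to -0.42) by Il12b and 0.43 (-0.25 to 1.07) by Egr2. Differences between these divisions were not tested, and the same cells enter all of them. Nfkbib, Peli1, Cd81 and Cd74 were named for their ratios in the division by Ifnb1, which favours larger differences there. The positive group was also smallest for Ifnb1, with 32 thinned cells, and ratios of smaller groups scatter more widely.

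The 2 Rad21-/- cells with Ifnb1 at 2 h are given as single values. They held 6267 and 5149 UMIs and 1 Ifnb1 UMI each. Neither held a Peli1 UMI, 1 held 1 Cd74 and 1 Nfkbib UMI, and the other held none of these. A Rad21-/- well above the limit, with 72517 UMIs, also held 1 Ifnb1 UMI, with 1 Peli1, 2 Cd74 and 14 Nfkbib UMIs.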

How the data were processed

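The authors deposited 1 table of UMI counts per gene and well, not normalised, from single-cell 3' RNA-seq by MARS-seq. Per the study's methods, reads were mapped with GEMTools 1.7.0 to GRCm38.p4 with Gencode M8 genes, UMIs within a small edit distance were merged, and wells with over 15% spike-in or under 60% mapped reads were removed. Such steps decide which wells and molecules enter a count. The table held 18429 rows, and 1 symbol on 2 rows was left out of gene results but kept in totals. Of the wells, 44 (Rad21-/- at 8 h, from pools that gave few wells to that sample) were not used here, although such wells of the other samples were, and they enter no comparison of positive with negative cells.

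Wells of the wild-type 2 h sample with at most 25000 UMIs were divided by Ifnb1 UMIs (at least 1, or 0). Cells were thinned to 3800 UMIs, the largest multiple of 100 that keeps 80% of cells of each sample. The 160 thinned cells of the 181 held 1129966 UMIs before thinning. Genes with at least 50 thinned UMIs were compared by the log2 ratio of mean UMIs per cell with 0.5 UMI added to each group total, with exact binomial intervals of the ratio, and by shares of cells with Clopper-Pearson intervals. Because each condition is 1 sample, no p-value was computed, and called means past 2-fold or 10 points of share. Doublets were not called, since cells were sorted singly into wells, and wells above 25000 UMIs were left out.

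Named genes were the 15 highest and 10 lowest ratios on 1 side of 0 in the 4 pools with at least 5 cells of each group, the 10 largest rises and 5 largest falls in share, the RNA-FISH genes, pathway genes and the 2 highest and 2 lowest of each list. Bcl10, Lcp2 and Cd81 were picked from these for a fuller account after their values were seen. The members and gene lists were chosen with earlier results of these data known. Alternatives covered thinning, matching on UMIs, positivity, pools, the gene minimum and the added constant. Python 3 with numpy, pandas and scipy was used, and the code was tested on simulated data. Promoters are from RefSeq (GRCm38.p6). Some genes that these rules name are not reported here.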

Additional observations from a re-analysis of the deposited data

Results flagged for a closer look

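Wells left out for holding over 25000 UMIs held Ifnb1 UMIs that the comparison above does not use. All 5 such wild-type wells at 2 h, with 25105 to 496955 UMIs, held Ifnb1, with 1 to 13 UMIs each, whereas 0 of 8 such wells of the untreated and 8 h samples did. The Rad21-/- wells at 2 h above the limit held 1 Ifnb1 UMI (72517 UMIs) and 0 (96535 UMIs). A deeper well is more likely to hold an Ifnb1 UMI at the same level, so these shares cannot be compared with that of kept cells. The level was 20.0 CPM for Ifnb1 in the 5 wild-type wells and 45.9 CPM in the 181 kept cells. Whether each well held 1 cell was not tested. The wells nearest the limit had 21368 UMIs inside it and 25105 outside it.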

How the results depend on the processing

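No paired analysis was possible because each condition is 1 sample. The medians of the gene lists moved with the setting, and the one for immediate-early genes (0.14 as reported) fell to -0.24 under the rule that keeps 50% of cells and to -0.056 with matching. The counts of genes past a threshold depended on how many UMIs stood behind each gene, since ratios of few UMIs scatter widely. Leaving out 1 pool (or the smaller pools) at a time gave 7 to 14 genes at least 2-fold higher and 9 to 47 lower, 201 to 268 and 194 to 262 past 10 points of share, medians of 0.06 to 0.32 for interferon-stimulated genes, 0.046 to 0.35 for cytokines, 0.11 to 0.21 for chemokines, 0.10 to 0.17 for NF-kappaB genes, 0.046 to 0.44 for immediate-early genes, 0.04 to 0.11 for ribosomal proteins and -0.08 to 0.10 for class D, a difference in median UMIs of -256 to 1710 (104 with all pools), and an Ifnb1 share of 15.1% to 21.5% in wild-type and 0.719% to 1.44% in Rad21-/- cells.

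Requiring 2 Ifnb1 UMIs left 11 thinned positive cells, and ratios and shares of so few cells scatter more widely. It gave 86 genes 2-fold higher, 139 lower, and 470 and 489 past 10 points. The medians were 0.31 for cytokines and 0.18 for ribosomal proteins, and the Ifnb1 shares 6.63% in wild-type and 0 in Rad21-/- cells. A gene minimum of 20 UMIs gave 187 and 296 genes past 2-fold and 580 and 579 past 10 points, a minimum of 200 gave 0 and 0, and 28 and 22, and no minimum gave 2952 and 2151, and 760 and 652. Without thinning the counts were 5 and 2, and 454 and 98. Matching on UMIs within pools gave 4 genes 2-fold lower and medians of 0.049 for chemokines and -0.024 for ribosomal proteins. Calling positivity after thinning gave 18 and 74 genes and a difference in median UMIs of -1000 (104 as reported). Thinning by a rule that keeps 50% of cells gave 18 genes higher, keeping the wells above 25000 UMIs gave 16 lower and 0.033 for chemokines. Chosen after seeing the data, a depth of 2400 UMIs gave 140 genes 10 points lower, and leaving out the richest cell of each group gave 5 and 83 past 2-fold.

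Of the named genes past 2-fold or 10 points, these changed direction. In share, a second thinning draw gave -10.2 points for Peli1 and 1.56 for Snx27. The 50% rule gave -4.29 for Serinc1, -0.238 for Zfand6, -1.67 for Ndufa13 and 8.33 for Manf, and the depth of 2400 gave -2.54 for Gm14044 and 1.48 for Gm43655, whose log2 ratio was then 0.0071. No thinning gave 1.02 for Snx27, and matching gave 1.82 for Gm20498, 3 for Snx27 and -2.59 for Ndufa13. Many named genes kept their direction in share and ratio in each setting run, among them Nfkbib, Bcl10, Lcp2, Cd81, Pde1c, Gpc6, Ifit1, Nadk and Cd74. Some of these ratios became small, such as 0.03 for Lcp2 under the 50% rule and -0.02 for Cd74 at the depth of 2400. The settings of the gene minimum cannot change the values of a gene, and those of the added constant cannot change a share. The contrast at 8 h was not run, as no cell was positive.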
